A study of Drosophila melanogaster with 3 samples.

Results

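ush (FBgn0003963) and cbt (FBgn0043364) are a pair of overlapping zinc finger genes on chromosome arm 2L of Drosophila melanogaster. In build dm6 ush runs from 476220 to 540560 on the plus strand. The short gene cbt, from 476446 to 479688 on the minus strand, lies wholly inside the first intron of the longest ush transcripts. The locus is taken here as both gene bodies plus 10 kb on each side, chr2L:466220-550560, a window of 84341 bp. It held 14 of the 3747 summits in the authors' thresholded set from a chromatin immunoprecipitation sequencing (ChIP-seq) experiment with replicates on the protein CG9609. The genes were chosen by the measured signal, because the peak with rank 2 in the whole genome lies in the ush intron just upstream of cbt, so the counts, ranks and signal values are given as descriptions with no test.

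The 3 samples were biological replicates of 1 group, whole embryos of mixed sex aged 0 to 24 h from a transgenic strain that stably expresses CG9609 with a C-terminal GFP, with GFP as the target of the antibody. All samples carried the same transgene; the labels do not name its promoter, and no line without it was part of the comparison. Each replicate came with a list of 29898 to 30000 regions that includes weak background, and the authors also deposited a pooled list of 29054 regions and a thresholded set of 3747, called the reproducible set here. Read depth is unknown, so ranks by the authors' signal value within a list are used throughout. In whole embryos, binding in few cells and weak binding in many cells cannot be told apart.

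ush encodes Ushaped, a multi-zinc-finger protein of the Friend of GATA family. It does not act alone but binds GATA transcription factors such as Pannier and Serpent, and it is known from bristle patterning, blood cell development and the closure of the dorsal epidermis. cbt encodes Cabut, a zinc finger factor related to the mammalian TIEG proteins of the Krüppel-like family, known from dorsal closure in the embryo and from the transcriptional response to sugar downstream of the factor Mondo. ush has start sites for transcription (TSSs) at 4 places. The transcripts ush-RE and ush-RD start at 476220, ush-RB at 490835, ush-RA at 523466 and ush-RC, 270 bp further on, at 523736. The cbt transcripts start at 479688 and run the opposite way.

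The DNA under 4 of the peaks is shown first: the strong pair upstream of cbt, which carries most of the signal, the promoter of ush-RB, where the base composition is the opposite, and a peak far from any start site. Sequences are from the RefSeq assembly of the same build, plus strand, 5′ to 3′. In the first pair and in the last one, capitals mark the stretch from the first to the last of the replicate summits. In the third, the single capital is the start site of ush-RB. The first is the strongest peak, chr2L:480941-481240. The second is the peak just upstream of cbt, chr2L:479943-480242. The third is at ush-RB, chr2L:490654-490953. The fourth is a narrow region of 120 bp further inside the first ush intron, chr2L:485796-485915.
strongest peak: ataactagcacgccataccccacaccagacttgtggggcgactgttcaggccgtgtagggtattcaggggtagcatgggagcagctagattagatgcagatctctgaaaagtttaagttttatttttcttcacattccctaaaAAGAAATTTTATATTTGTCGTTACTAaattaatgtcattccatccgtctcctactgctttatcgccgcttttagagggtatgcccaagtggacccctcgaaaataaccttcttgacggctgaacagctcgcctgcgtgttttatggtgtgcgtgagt
cbt upstream peak: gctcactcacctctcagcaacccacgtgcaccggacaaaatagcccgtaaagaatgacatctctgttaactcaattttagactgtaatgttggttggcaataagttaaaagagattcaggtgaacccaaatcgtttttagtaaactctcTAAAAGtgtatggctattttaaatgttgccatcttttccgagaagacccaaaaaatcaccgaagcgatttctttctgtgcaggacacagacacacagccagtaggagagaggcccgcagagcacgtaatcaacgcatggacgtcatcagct
ush-RB promoter peak: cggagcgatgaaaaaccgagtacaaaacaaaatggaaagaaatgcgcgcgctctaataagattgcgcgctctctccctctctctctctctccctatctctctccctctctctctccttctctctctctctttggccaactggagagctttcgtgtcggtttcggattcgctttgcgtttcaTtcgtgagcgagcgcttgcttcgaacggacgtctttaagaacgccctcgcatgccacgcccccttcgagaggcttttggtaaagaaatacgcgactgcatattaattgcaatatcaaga
narrow intronic peak: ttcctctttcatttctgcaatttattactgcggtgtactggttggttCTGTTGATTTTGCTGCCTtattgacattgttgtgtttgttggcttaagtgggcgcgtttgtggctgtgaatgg

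The strongest peak of the locus had its summit at 481090, in the region chr2L:480882-481294. It lay 1402 bp upstream of the cbt TSS and 4870 bp downstream of the first ush TSS, in intron 1 of ush-RE. It ranked 2 in the reproducible set and 3, 2 and 1 in replicates 1, 2 and 3. The replicate summits fell within 25 bp of each other. The replicate signal values of 678.3, 747.3 and 1020 were 80.9%, 91.7% and 100% of the highest value in the respective list. It was therefore among the strongest regions of every replicate, and in replicate 3 no region of the genome was stronger.

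The next strongest peak lay at the promoter of cbt. Its summit, at 480092 in the region chr2L:479927-480239, was 404 bp upstream of the cbt TSS and 998 bp from the strongest summit. Its rank was 63 in the reproducible set and 48, 95 and 64 in replicates 1, 2 and 3, with summits that agreed within 5 bp. Its signal was 233.2, 193.1 and 307.7 in the same order. The strongest peak exceeded it 2.91-fold, 3.87-fold and 3.31-fold within these lists, 3.36-fold ± 0.482 on average (SD, n = 3). Both peaks keep their order in every replicate. Of the 100 strongest reproducible summits, 4 had another of the 100 within 2000 bp, and they formed 2 pairs, the one beside cbt and one on X with CG4004 as its nearest gene.

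**Figure D1:**
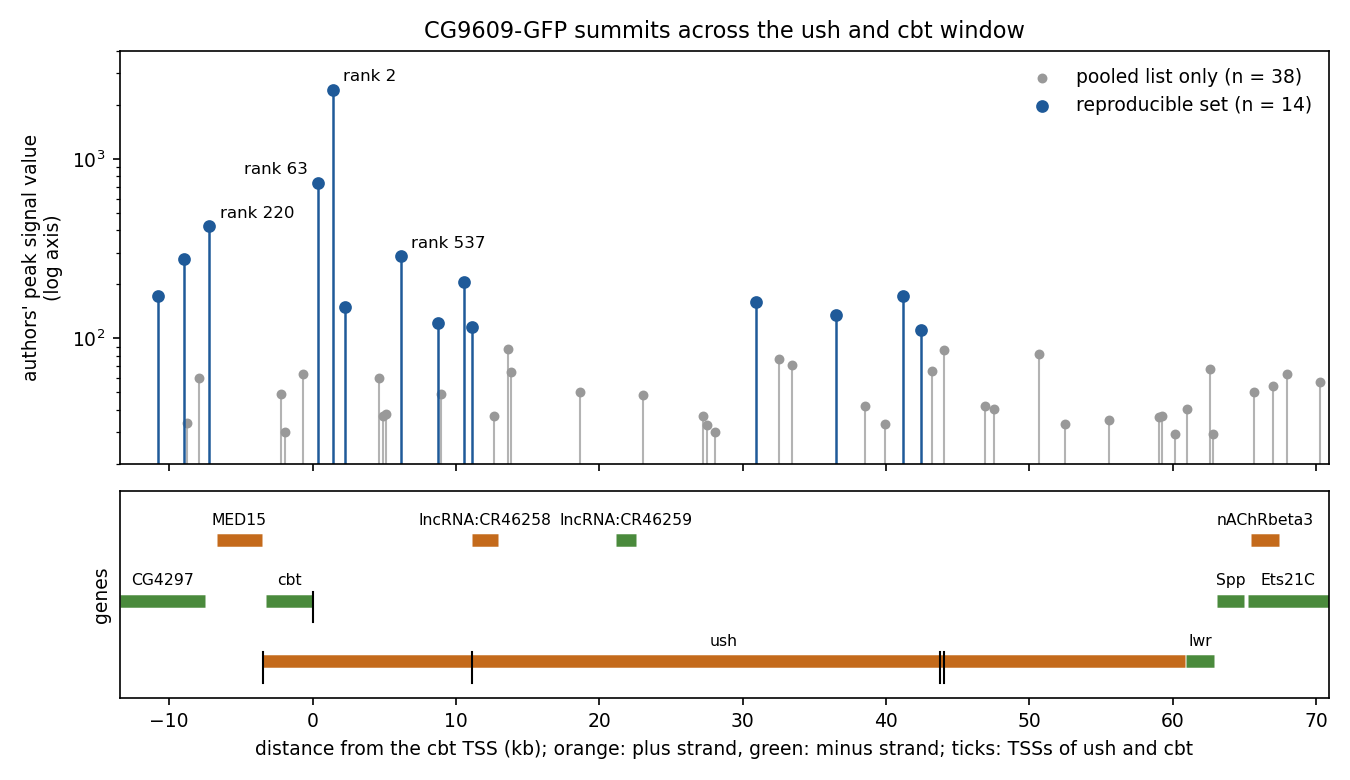
Top, the authors' peak signal value (log axis) of the 14 reproducible summits (blue) and of the 38 further pooled regions (grey) against distance from the cbt TSS in kb. Bottom, the genes of the window by strand, with ticks at the TSSs of ush and cbt. The summits of rank 2 and 63 stand side by side just upstream of cbt, and blue points end before the last ush promoters.

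Most of the signal lay between the cbt TSS and the internal ush promoter. This stretch of 11147 bp held 7 of the 14 summits and 73.7% of their summed signal. Besides the pair beside cbt, it contained a summit at 481931, of rank 1789, which lay 2243 bp upstream of cbt. The narrow region at 485796 to 485915 had rank 537 in the reproducible set and 682, 928 and 395 in the replicates. The summit at 488417, of rank 2431, was the least well placed of the locus. Replicates 2 and 3 had a summit within 33 bp of it, at ranks 3500 and 2529, but the nearest summit of replicate 1 lay 173 bp away, at rank 1499, and matched a separate pooled region at 488621 that was outside the reproducible set.

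At the internal promoter of ush there were neighbouring summits 559 bp apart. The one at 490803 lay 32 bp upstream of the ush-RB TSS, where the non-coding gene lncRNA:CR46258 (FBgn0267991) also starts, and had rank 2662, with replicate ranks of 2712, 2694 and 4149. The one at 490244, 591 bp upstream, was in the 5′ UTR of ush-RE and had rank 1000, with replicate ranks of 979, 1094 and 954, the smallest ratio of highest to lowest rank among the 14 (1.15). At this promoter the stronger summit was thus the one further from the start site. The summit next to the TSS fell outside the 3747 strongest regions in replicate 3.

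Between the ush-RB and ush-RA TSSs, a stretch of 32631 bp, 4 summits followed a gap of 19830 bp without any. They lay at 510633, 516174, 520873 and 522117, with ranks of 1582, 2105, 1367 and 2786, and at distances of 12833 to 1349 bp upstream of ush-RA. Together they held 10.5% of the summed signal of the locus. The summit at 516174 had ranks of 4203, 3082 and 1474 in replicates 1, 2 and 3, and that at 522117 had ranks of 4864, 2030 and 2968. Both were outside the 3747 strongest regions of replicate 1 and inside those of replicates 2 and 3.

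The 2 downstream ush promoters carried no reproducible summit, although ush-RC, the canonical transcript of the Ensembl annotation, starts there. The pooled list had a region with its summit 30 bp downstream of the ush-RC TSS, of rank 3969 and signal 86.4, close to the lowest signal in the reproducible set, 89.99. The replicate ranks were 29364, 4210 and 5253, by far the lowest place being that in replicate 1. The weakest locus summit inside the set was that at 522117, with a signal of 111.3 at rank 2786, and the strongest region outside it lay in the ush intron at 493343, with 86.9 and rank 3934. No reproducible summit fell in the last 28443 bp of the window, which contains the downstream ush promoters, most coding exons of ush and the genes beyond it.

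The first ush promoter was likewise without a reproducible summit. Within 500 bp of the TSS at 476220 only replicate 3 listed a region, at rank 29741. The cbt gene body had none either, with 3 pooled regions between the first ush TSS and the cbt TSS, the strongest of rank 6226. That region, 665 bp downstream of the cbt TSS, was of rank 3637 and 3706 in replicates 1 and 2, and replicate 3 had no summit within 100 bp of it. Of the TSSs of cbt and ush, those of cbt and of ush-RB were thus the ones with a reproducible summit within 500 bp.

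The margin before ush contained 3 summits, all in or beside CG4297 (FBgn0031258), a gene on the minus strand that runs past the end of the window. They were a promoter summit at 472475, 275 bp upstream of the TSS of CG4297-RC, of rank 220, and intron summits at 470717 and 468922 of ranks 573 and 1358. The replicate ranks of the promoter summit were 169, 287 and 274. The summit at 468922 was of rank 3748 in replicate 1, one place outside the 3747 strongest regions, and of ranks 1067 and 981 in replicates 2 and 3. Between CG4297 and ush lies MED15 (FBgn0027592), which encodes a subunit of the Mediator complex, and its TSS had no reproducible summit within 500 bp. The summit at 472475 was only just beyond that limit. It lies between the TSS of CG4297-RC at 472200 and that of MED15 at 473013, which run in opposite directions. The body of MED15 plus 10 kb held 7 summits, with 0 in the body itself. In the margin after ush lie lwr, which encodes the SUMO-conjugating enzyme Ubc9, Spp, which encodes a signal peptide peptidase, nAChRbeta3, which encodes a subunit of a nicotinic acetylcholine receptor, and Ets21C, which encodes an ETS transcription factor. None of these 4 genes had a reproducible summit in its body or within 10 kb, as was the case for 5736 of all 13968 protein-coding genes. The 4 genes are neighbours with overlapping windows, so these are not separate observations.

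**Figure D2:**
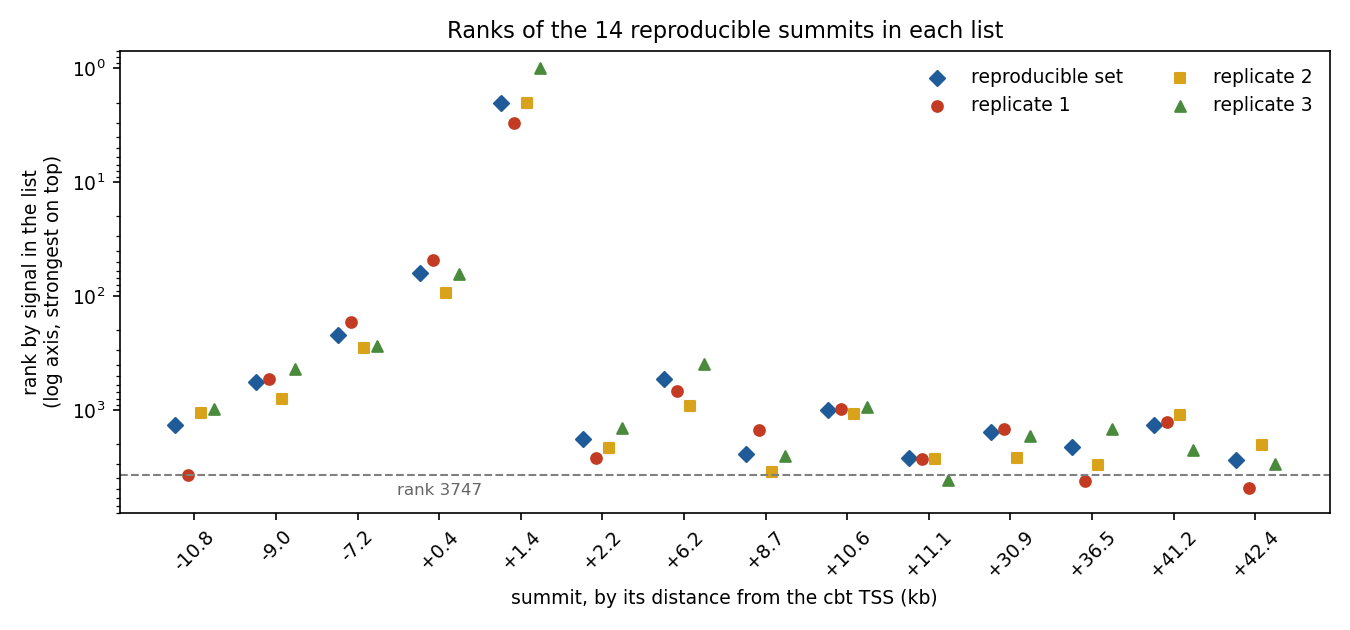
Rank by signal (log axis, strongest on top) of the 14 reproducible summits in the reproducible set and in each replicate list, by distance from the cbt TSS in kb. The dashed line marks rank 3747. The summit at +1.4 kb holds ranks 1 to 3 in all lists, and the replicate 1 points at -10.8, +36.5 and +42.4 kb and the replicate 3 point at +11.1 kb lie beyond the line; the replicate 1 point at +8.7 kb is a region 173 bp away.

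Across replicates the order of the 14 summits was alike. Spearman's rho of their ranks was 0.785 for replicates 1 and 2, 0.811 for 1 and 3, and 0.873 for 2 and 3, over 14 summits of 1 locus that were taken from a set chosen for repeatable ranks, so no p-value is attached. These values count the replicate 1 region 173 bp from the summit at 488417. Over the 13 summits without it, an alternative chosen after seeing the data, rho was 0.841, 0.841 and 0.879 in the same order. The highest replicate rank of a summit was at the median 2.00 times its lowest (1.98 without that summit), and at most 3.82 times, at 468922. Among the 3747 strongest regions, replicate 1 had a summit within 100 bp of 10 of the 14, replicate 2 of 14 and replicate 3 of 13. For 9 of the 14 this held in all 3 replicates, against 55.4% of the whole reproducible set, and for the other 5 in 2 replicates. Without replicate 1 the count was 13. The whole window held 53, 57 and 53 regions in replicates 1, 2 and 3, of which 14, 16 and 16 were among the 3747 strongest. In the pooled list it held 52 regions, and 26.9% of them were in the reproducible set, against 12.9% of all pooled regions.

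Promoters took a smaller part of the summits than in the genome at large. Of the 14, 3 lay within 500 bp of a protein-coding TSS, at cbt, ush-RB and CG4297-RC, against 53.9% of the whole set. The 3 became 1 with a window of 250 bp and 5 with 1000 bp, for which the share of the whole set is not given here. Of the rest, 10 were in introns, 8 of them of ush and 2 of CG4297, and 1 in the 5′ UTR of ush. Introns held 30.3% of the whole set. By distance, 4 of the 14 were 501 to 2000 bp from the nearest protein-coding TSS. This class had 695 reproducible summits, 18.55% of the set, and the peak beside cbt was the strongest of them. Another 7 were over 2000 bp away and in introns, a class with 17.3% of the set, where the narrow region of rank 537 came only 58th of 647. Of the 14 summits, 12 were upstream of their nearest TSS, against 64.3% of the whole set, and those of CG4297 at 470717 and 468922 were downstream. The median signal of the 14 was 171.7, against 144.5 in the whole set, and 10 were above the latter.

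For the number of summits, ush stood near the end of the distribution. A protein-coding gene was counted with its body plus 10 kb on each side, and 58.9% of 13968 genes had at least 1 reproducible summit, with a median of 1. ush had 14, of which 11 were within its body, and 1 gene had more. This was CG1677, on X, with 17, while kirre on X and sbb on 2R also had 14. In each case the window covers neighbouring genes, and gene length matters: 203 genes were at least as long as ush, and the 4 genes with 14 or more were all among them. Scaled to the length of the window, ush had 1.66 summits per 10 kb. No gene at least as long had more, but 488 genes of any length did. For cbt the count was 8, or 3.44 per 10 kb, which 7 genes exceeded, although its own body of 3243 bp had none. Among the 3747 strongest regions of each replicate the ush window held 15.3 ± 1.155 summits (SD) and the cbt window 9 in every replicate (n = 3).

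**Figure D3:**
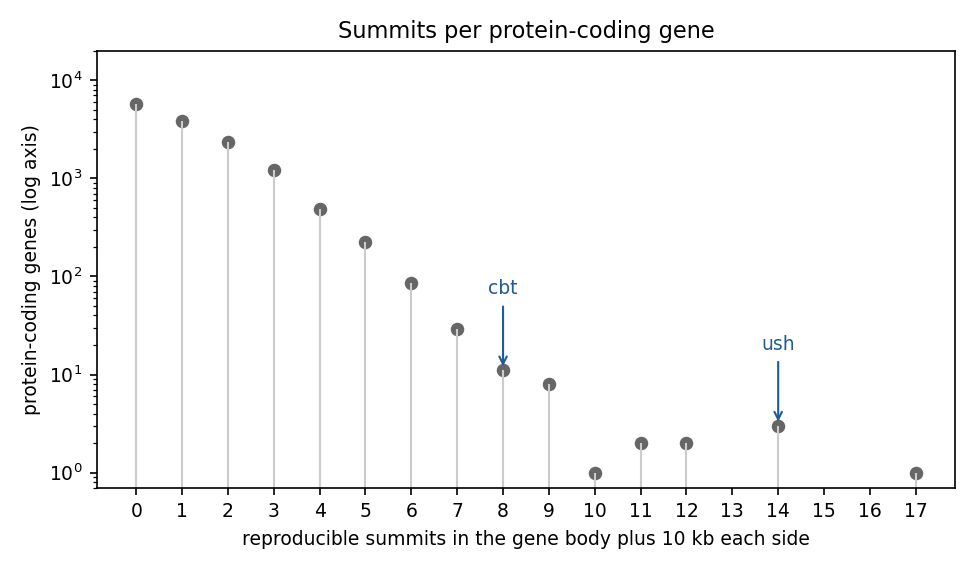
Number of protein-coding genes (log axis) by their count of reproducible summits in the gene body plus 10 kb on each side. ush, with 14, and cbt, with 8, are marked; 1 gene has more summits than ush, with 17.

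Most of the 14 summits had a centre richer in A and T than their flanks. In the strongest peak, the 101 bp around the summit had 28.7% G and C, against 46.04% in windows of the same length 300 bp to either side. The run of bases in capitals in its sequence, where the replicate summits fall, sits in this A/T-rich centre. In the cbt promoter peak the values were 33.7% and 59.4%. Over the 14 summits the median was 32.2% at the centre and 48.5% in the flanks, and the centre was lower in 11 of them. In the whole set the medians were 36.6% and 44.1%, and the centre was lower in 68.7% of summits. Among the 25307 pooled regions outside the set the centre was lower in 36.2%, with medians of 48.5% and 44.1%. The median difference between centre and flanks was -17.3 percentage points in the locus, -6.93 in the whole set and -10.9 among its 100 strongest summits. The 3 exceptions in the locus were the promoter summit of CG4297 (37.6% and 35.1%) and both summits at ush-RB. There the centre had 53.5% G and C at the TSS and 50.5% at 490244, against 38.6% and 36.6% in the flanks. The difference was also small at the narrow intronic region (-2.97 percentage points) and at 510633 (-4.455), each with 43.6% at the centre.

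**Figure D4:**
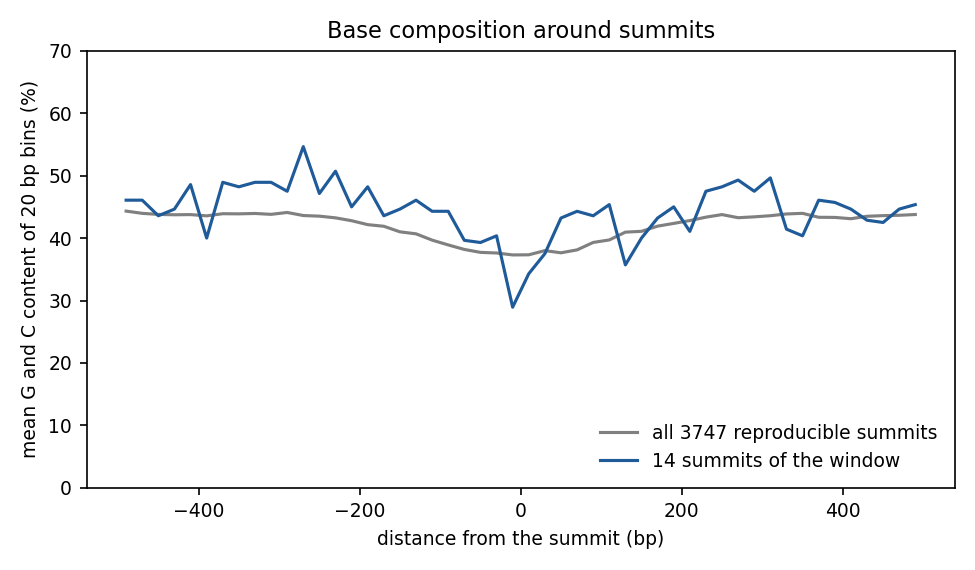
Mean G and C content, in percent, of 20 bp bins by distance from the summit in bp, for the 14 summits of the window (blue) and all 3747 reproducible summits (grey). The lowest bin of the locus is 28.9%, just before the summit, where the whole set has 37.3%.

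Short motifs were searched within 50 bp of each summit on both strands. The GATA core GATAA, the site of the factors that Ushaped binds, was in 4 of the 14 windows, against 23.3% of the whole set and 15.4% of the pooled regions outside it. These were the ush intron summits at 488417, 510633, 520873 and 522117. The strongest peak had a match only outside that window, 52 bp past the summit. Within 100 and 150 bp, GATAA was in 5 and 7 of the 14 windows, against 40.2% and 52.1% of the set, so the locus did not exceed the set there. GAGAG, the core of GAGA factor sites, was in 4 windows within 50 bp, against 10.01% of the set and 13.4% of the pooled regions outside it. The window at the ush-RB TSS held 9 of these matches, many of them overlapping in the CT-rich run visible in its sequence. Another 7 motifs were in none of the 14 windows and in 0.454% to 4.88% of the whole set. They were the E-box CACGTG (1.07% of the set), the DNA replication element TATCGATA (2.99%), the Zelda site CAGGTAG (0.454%), the core promoter motif GGTCACAC (1.63%), the GC box GGGCGG (2.03%), the AP-1 site TGANTCA (2.69%) and the second E-box CAGCTG (4.88%). Within 150 bp, CACGTG was in 2 windows against 4.003% of the set, at -91 bp from the summit at 481931 and -127 bp from that of the cbt promoter peak. GGGCGG was in 1 window against 7.13%, that at 516174, and CAGCTG in 2 against 16.1%, those at 470717 and 490244, while the other 4 of these motifs were in none.

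Words of 8 bases were ranked over all 3747 summits. Of the 10 with the largest difference in share between the centre and the flanks, ATCGATAG and CAACACTG led, with 3.31% and 2.96% of centres and 0.414% and 0.307% of flanks, and neither was in any of the 14 windows, nor was TATCGATA. The other 7 words consisted of A and T alone. At least 1 of the 10 words, always an A/T word, was present in 7 of the 14 windows, against 25.7% of the whole set and 9.57% of the pooled regions outside it. The words were picked for their share in the centres of this same set, so its excess over the other pooled regions is no separate result. Within 150 bp, any of the 10 words was in 8 of the 14 windows, against 53.9% of the set. The cbt promoter peak contained ATTTAAAA, 16 bp past its summit on the minus strand, while the strongest peak contained none of the 10. A match is a string of letters and not a measured site.

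The windows were also searched for copies elsewhere in the genome, since reads from repeats cannot be placed. For 12 of the 14 windows of 301 bp, including both strong peaks beside cbt, blastn found no other match. The window at the ush-RB TSS had 548, of which 14 were at least 50 bp long and 90% identical. The window at 510633 had 1 match, 41 bp long. The part of repeats in the weak peak at ush-RB was not tested.

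Genes close to ush in intronic peak rank were sought by the distance between log10 ranks over the 3 replicate lists, a fixed measure. The candidates were 640 other genes whose strongest intronic summit was in all 3 lists. The ush peak was chosen for signal and held replicate ranks 3, 2 and 1, so the measure returns mainly the next strongest intronic peaks. The order below is therefore no separate result about likeness to ush. The nearest was Lk6, a kinase gene on 3R, whose peak region ran from 11760876 to 11761219, with replicate ranks of 6, 8 and 7 and a distance of 1.08. It was followed by CG11050 on 2L, whose peak region ran from 6612525 to 6612904, with ranks of 22, 6 and 4 and a distance of 1.16. Next came CG9663, CG32772 and the transcription factor gene Adf1, at distances of 1.72, 1.84 and 1.89. All 5 peaks lay 800 to 1263 bp from the nearest protein-coding TSS, which in each case belonged to the gene itself. Summits in promoter windows were not classed as intronic, which sets a lower limit to these distances. The ush peak, at 1402 bp, differs in that its nearest TSS belongs to the nested gene cbt.

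Other genes of the pathways of ush and cbt had promoter summits at a share close to that of all genes. Of the 80 genes in 8 lists, 13 had a reproducible summit within 500 bp of a TSS, against 18.8% of all protein-coding genes, and 57 had one in the body plus 10 kb, against the 58.9% given above. Among proteins that partner Ushaped or act in chromatin repression, 3 of 9 genes had a promoter summit. These were MBD-like, of rank 1423, CoRest, a co-repressor gene, of rank 2422, and MTA1-like, of rank 2897. None of the 5 GATA factor genes had one, and within 10 kb pnr had a summit of rank 2189, GATAd one of rank 2761, and srp, grn and GATAe none. Of the blood cell genes 1 of 12 had a promoter summit, the receptor gene N, of rank 3348. Of the genes that pattern the dorsal embryo it was 2 of 18, the transcription factor gene shn, of rank 2987, and peb, of rank 3054. Of the sense organ genes that act with or downstream of pnr, 0 of 6 had a promoter summit, and within 10 kb only Chi had a summit, of rank 1933.

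For cbt, the lists were sugar sensing, Jun kinase signalling with dorsal closure, and relatives of the Krüppel-like family. The counts of these small lists stand against the 18.8% of all protein-coding genes given above. Sugar-sensing genes had a promoter summit in 3 of 10 cases. These were bigmax, which encodes the partner of Mondo, of rank 565, Gpdh1, a glycerol phosphate dehydrogenase gene, of rank 1332, and Mondo itself, of rank 2027. Of the Jun kinase and dorsal closure genes it was 3 of 11, with the ETS repressor gene aop of rank 1913, the myosin gene zip of rank 2789 and the kinase gene msn of rank 3579. Of 9 relatives of cbt only Spps had one, of rank 3618. All of these promoter peaks were weaker than the cbt promoter peak of rank 63. Away from promoters this did not hold for every list member. Within the body plus 10 kb, which can cover neighbouring genes, the strongest summit had rank 12 for Caf1-55, 32 for CG3065, 40 for ATPCL and 43 for Med.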

How the data were processed

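ChIP-seq peak lists of 3 replicates of CG9609-GFP embryos, made from chromatin sheared to 200 to 800 bp per the labels, were analysed in build dm6. The deposited narrowPeak lists give a signal value per region, and per the deposited records the replicate and pooled lists derive from the reads and a further shared file; the signal's scale, the aligner, the software that called peaks and its cutoffs are unknown, as the sources used here do not give them. The other deposited column used holds the summit offset, a count of bp from the region start. The dm3 lists were not used. Ranks are by signal within a list.

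Summits were placed on the Ensembl release 115 annotation (BDGP 6.54; 13968 protein-coding genes) and the RefSeq assembly of the same build, with coordinates from 1. Regions matched when summits lay within 100 bp, and for the 14 summits of the locus the nearest summit within 250 bp is also given. Classes were promoter (within 500 bp of a protein-coding TSS), then exon classes, intron and intergenic. Words were ranked by their share within 50 bp of summits minus that in windows 300 bp to each side. Copies were sought with blastn 2.17.0 at an E-value of 1e-05. Python 3.11.15, pandas 2.3.3 and NumPy 2.4.6 were used, and the counting and word steps were tested on simulated data.

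Named genes are those of the window, list members with promoter summits (at most 4 a list), the 5 nearest in rank to ush, and CG9609; CG1677, kirre, sbb, CG4004 and the members without promoter summits were named after their values were seen. The genes, lists and motifs were chosen with earlier results of these data known. No test was made, since all samples form 1 group and the locus was chosen for its signal.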

Additional observations from a re-analysis of the deposited data

How the results depend on the processing

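The count of 14 summits was 12 with a margin of 5 kb, 14 with 20 kb and with any overlap of the region, and 10 in the stronger 50% of the set. A consensus of the 3 replicate lists gave 9, and the consensus of the other replicates gave 9 to 14 when each was left out in turn, with 9 without replicate 2 and 14 without replicate 1. The 3 promoter summits were 1 with a window of 250 bp and 5 with 1000 bp. The 9 summits shared by all replicates were 8 and 10 at distances of 50 and 250 bp and 9 to 13 without each replicate in turn. The strongest peak kept a mean replicate rank of 1.5 to 2.5 without each replicate. The 13 list genes bound at a promoter were 57 by gene body plus 10 kb, 11 with 250 bp and 19 with 1000 bp. For promoter windows of 250 and 1000 bp, the shares of all genes and of the whole set are not given here. Those counts therefore cannot be set against a background. Windows with any of the 10 words were 8 in place of 7 within 100 and 150 bp, while the share of the whole set rose from 25.7% to 44.1% and 53.9%, so at 150 bp the locus was close to the set. The cause of these differences was not tested. With read depth unknown, no interval is given for a rank or signal value.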

Other observations

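The gene of the tagged protein itself, CG9609 (FBgn0030787) on X, had a reproducible summit within 500 bp of a TSS and 3 summits in its body plus 10 kb, the strongest of rank 693. At the genes after ush, weak regions differed between replicates. The summit nearest to the TSS of nAChRbeta3 had rank 4752 in replicate 1, at 227 bp, and 21282 in replicate 3, at -8 bp. Replicate 2 had none within 500 bp. These were separate regions, and within 100 bp of the pooled summit at 545333 the replicate 3 rank was 26463. For Ets21C the nearest summit had rank 4564 in replicate 2, at -288 bp, and 9406 in replicate 3, at -471 bp, with none in replicate 1. These were also separate regions, and at the pooled summit at 549953 replicates 2 and 3 were alike, with ranks of 9007 and 9406. In the ush intron, a pooled region at 512221 had ranks of 3323 and 2861 in replicates 2 and 3 and none in replicate 1, and its neighbour at 513139 had 2304 in replicate 1, 6607 in replicate 3 and none in replicate 2.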
